A study of Mus musculus with 12 samples.

Results

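The ABC transporters described here are the genes of the ATP-binding cassette subfamilies A to G that mouse liver expressed in this series. Members were the genes whose symbol starts with Abca to Abcg followed by a number and whose expected count, an estimated number of fragments per gene, was 10 or more in at least 3 of 12 libraries. This rule kept 39 of 45 such symbols, out of 16239 named genes in the files. The members fall into 9 genes of subfamily A, 9 of B, 8 of C, 4 of D, 1 of E, 3 of F and 5 of G. Abca4, Abca13, Abca14, Abca17, Abcc12 and Abcg4 stayed under the count minimum, and 35 of the 39 members reached it in all 12 libraries. Just inside the rule, Abcb1b reached 10 counts in 9 libraries and Abcc1, Abcc4 and Abcg3 in 11 each, and just outside it Abcc12 did so in 1 library, with at most 15 counts.

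The series compared livers of mice with macrophage-specific loss of thrombospondin 1 (TSP1, a secreted matrix protein encoded by Thbs1) and of TSP1 floxed mice, under 2 diets. All mice were of strain 129/B6, 10 months of age, and had been on their diet for 8 months. The controls carry the floxed TSP1 allele and have the genotype WT in the labels. Total RNA of frozen whole liver gave 3 libraries in each of 4 groups. HF knockout is the macrophage knockout on the diet labelled HF, HF floxed is the floxed control on HF, LF knockout is the macrophage knockout on the diet labelled LF, and LF floxed is the floxed control on LF. The sources used here do not give the Cre driver or the composition of the diets. No label ties a library to an animal, and p-values therefore reflect how far libraries of a group differ, which may be technical in part.

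ABC proteins use ATP at a conserved pair of nucleotide-binding domains, most of them to move lipids, bile acids, drugs or metabolites across membranes. In liver the best known act at the canalicular membrane, where hepatocytes secrete bile. There Abcb11 exports bile salts, Abcb4 moves phosphatidylcholine to the outer leaflet, the heterodimer of Abcg5 and Abcg8 exports sterols, and Abcc2 exports conjugated organic anions such as bilirubin glucuronides. Many, though not all, of the other members work at the basolateral membrane, in mitochondria, lysosomes and peroxisomes. Subfamilies E and F have no membrane domain and serve in translation.

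Abcg5 and Abcg8 lie head to head, and their shared start region is shown because the 2 genes are reported together below. In the RefSeq promoter table (build GRCm38.p6, 250 bases before to 50 bases from each start) 29 of the 39 members had a window. Abcg8 had 2 windows, and that with the higher coordinates, on the plus strand at chr17:84682871-84683170, is used here. It shared 209 bases with the window of Abcg5. Between the start sites of these windows lay 109 bases, printed in capitals in the Abcg8 window.
Abcg8: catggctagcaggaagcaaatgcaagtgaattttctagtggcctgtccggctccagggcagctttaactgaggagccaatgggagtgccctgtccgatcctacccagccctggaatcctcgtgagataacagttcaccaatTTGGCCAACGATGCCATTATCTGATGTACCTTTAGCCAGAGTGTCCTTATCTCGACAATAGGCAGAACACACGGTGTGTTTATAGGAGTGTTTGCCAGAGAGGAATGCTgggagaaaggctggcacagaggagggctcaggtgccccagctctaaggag
The start regions of the other canalicular genes are shown for comparison, with any match to AGGTCA, the core hexamer of nuclear receptor sites, in capitals (TGACCT where it lies on the other strand). Abcb11 is on the minus strand at chr2:69342567-69342866, Abcc2 on the plus strand at chr19:43782058-43782357, and Abcb4, with no such match, on the plus strand at chr5:8893471-8893770.
Abcb11: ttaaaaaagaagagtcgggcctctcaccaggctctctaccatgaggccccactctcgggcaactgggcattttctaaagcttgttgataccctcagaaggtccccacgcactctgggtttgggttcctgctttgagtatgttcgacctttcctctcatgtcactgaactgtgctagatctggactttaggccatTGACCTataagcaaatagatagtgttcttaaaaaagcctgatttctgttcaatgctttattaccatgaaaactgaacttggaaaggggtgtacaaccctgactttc
Abcc2: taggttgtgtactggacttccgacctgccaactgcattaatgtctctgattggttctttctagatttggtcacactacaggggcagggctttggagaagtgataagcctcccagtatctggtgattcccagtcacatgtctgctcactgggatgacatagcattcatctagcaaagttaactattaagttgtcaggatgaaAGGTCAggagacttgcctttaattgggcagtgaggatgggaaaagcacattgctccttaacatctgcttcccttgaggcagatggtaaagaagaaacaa
Abcb4: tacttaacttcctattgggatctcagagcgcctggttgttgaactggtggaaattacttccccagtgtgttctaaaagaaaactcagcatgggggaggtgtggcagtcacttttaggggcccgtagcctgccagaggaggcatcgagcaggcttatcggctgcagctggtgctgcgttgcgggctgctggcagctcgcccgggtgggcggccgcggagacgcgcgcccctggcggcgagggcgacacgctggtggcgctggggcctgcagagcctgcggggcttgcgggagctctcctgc
On either strand AGGTCA occurred in 19.4% of the 36 member windows and in 16.3% of the windows of all genes. The GATA factor motif GATAAG occurred in 13.9% of member windows, those of Abcg5, Abcg8, Abcb4, Abcc2 and Abcg2, and in 7.44% of all windows. TATAAA occurred in 16.7% of member windows, among them those of Abcg5 and Abcg8, and in 13.6% of all. The GC box GGGCGG occurred in 58.3% of member windows and in 35.7% of all. The shared bases of the Abcg5 and Abcg8 windows count in both. A match describes the letters of a window and is no evidence of binding.

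Some libraries need to be known before the members' values. Libraries held 16131506 to 16536016 expected counts, of which named genes took 13336969 to 15080378 and the members 0.221 to 0.405%. HF knockout replicate 2 stood apart: its log2 CPM correlated with the other HF knockout libraries at 0.8256 and 0.8625, over genes. It gave the lowest value of all 12 libraries for 12 members and the highest for 7, and 45.9% of all genes tested were lowest or highest in it on the log2 CPM scale. Transport genes outside the family lay on both sides in it: Slco1b2, a basolateral uptake carrier, was at 3.73 FPKM against 94.12 to 239.15 FPKM in the other libraries, and Scarb1, a lipoprotein receptor, at 207.13 FPKM against 72.94 to 105.63 FPKM. The duct-associated gene Spp1 was at 743.15 FPKM in it against 17.67 to 103.27 FPKM. HF knockout replicate 3 held most neutrophil RNA, with S100a8 at 176.38 FPKM against at most 4.93 FPKM elsewhere. The deposited data of HF floxed replicate 3 and HF knockout replicate 1 are named in another form, for which the sources used here give no reason. In each of these libraries Abcc3 (42.79 and 9.94 FPKM) and Abcb1a (0.49 and 0.47 FPKM) were lowest of their group. Abcb4 was so only in HF floxed replicate 3. Within LF knockout, replicates 2 and 3 were nearly alike, and so were replicates 1 and 2 of HF floxed: their counts differed by 2.851 and 8.872 times sampling variance, against 50.7 to 527.8 times in other pairs of a group. Both pairs differed beyond sampling noise and were counted as separate libraries. That does not show separate animals, and if each pair came from 1 animal, n would be 2 in these groups.

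Thbs1 itself was at 0.16, 1.42 and 1.63 FPKM (fragments per length of transcript and depth of library) in HF knockout, 0.75, 0.75 and 0.31 FPKM in HF floxed, 0.08, 0.55 and 0.55 FPKM in LF knockout, and 0.11, 0.06 and 0.07 FPKM in LF floxed. It was thus not lower in the libraries labelled knockout. Whole liver holds cells other than macrophages that can express Thbs1. Their part in these levels was not tested, and each genotype below is the genotype as labelled. Markers of hepatocytes were abundant in every library, with 6 of 6 genes in the files and a summed level of 40832.2 to 79693.19 FPKM in HF knockout, 41548.45 to 44450.68 FPKM in HF floxed, 49870.57 to 65842.8 FPKM in LF knockout and 50860.34 to 67644.26 FPKM in LF floxed. Alb carried most of this sum. In HF knockout replicate 2 Alb was the highest of 12 libraries, at 72054.23 FPKM, while Apoa2, Ttr, Asgr1 and Cps1 were each the lowest.

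Levels of the members spanned a wide range on the FPKM scale, which corrects for gene length. The mean of 12 libraries was at least 50 FPKM for 3 members, 10 to 50 FPKM for 15, 1 to 10 FPKM for 11 and under 1 FPKM for 10. The highest were Abcd3, a peroxisomal importer of fatty acyl chains and bile acid intermediates, with a mean of 95.7 FPKM, Abcb11 with 81.6 FPKM and Abcb4 with 66.7 FPKM. They were followed by Abcc2 at 43.6 FPKM, Abcc3, a basolateral exporter of glucuronides and bile salts, at 40.2 FPKM, and Abcg2, an exporter of drugs and urate, at 34.4 FPKM. Neighbours in this order overlapped in their libraries: Abcd3 ran from 45.89 to 118.59 FPKM and Abcb11 from 28.46 to 106.12 FPKM. The highest members of the remaining subfamilies were Abca6 (26.3 FPKM), Abce1, a ribosome recycling factor (15.3 FPKM), and Abcf1, which acts in translation initiation (16.2 FPKM).

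The summed level of the members was 441.05, 464.99 and 683.7 FPKM in HF knockout, 713.6, 768.27 and 655.66 FPKM in HF floxed, 668.16, 730.29 and 737.72 FPKM in LF knockout, and 598.28, 612.55 and 549.97 FPKM in LF floxed. The 5 canalicular exporters made up 28.3 to 43.8% of it, depending on the library. All HF floxed sums lay above all LF floxed sums, while HF knockout overlapped HF floxed. FPKM values were not corrected for composition. Relative to TMM-scaled counts they shifted the median log2 difference of all genes by 0.26 for HF over LF in floxed and by -0.05 in knockout. For knockout over floxed the shift was -0.14 on HF and 0.17 on LF.

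**Figure D1:**
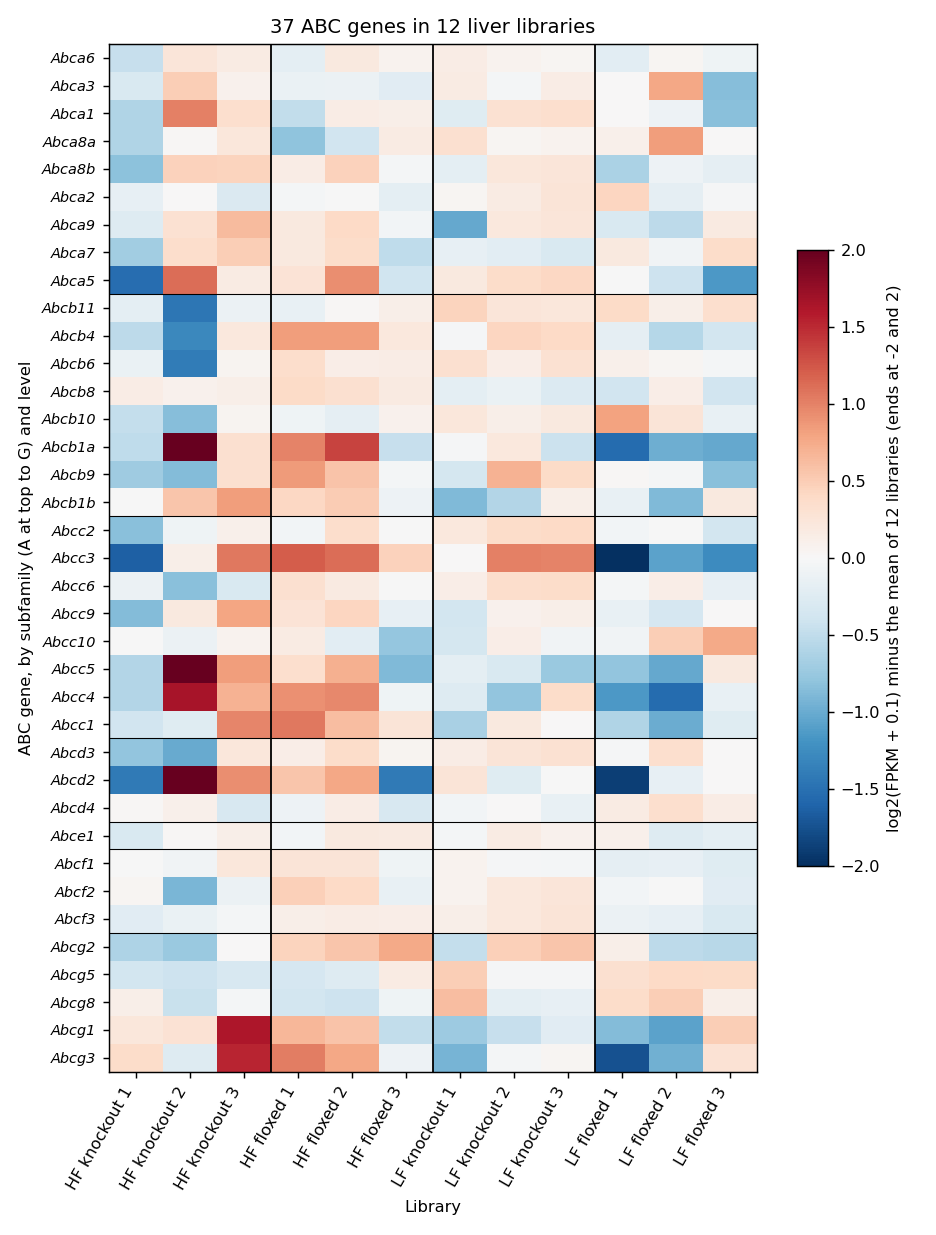
Heat map of 37 ABC genes (rows, by subfamily from A to G and by level) in 12 liver libraries (columns), coloured by log2(FPKM + 0.1) minus the gene's mean over the libraries, with colours ending at -2 and 2. HF knockout 2 holds the lowest level of Abcb11, Abcb4 and Abcb6 and the highest of Abcd2, Abcc5 and Abcb1a, and Abcc3 is low in the 3 LF floxed libraries and in HF knockout 1.

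No member passed the test in any comparison. At a false discovery rate of 5% edgeR's quasi-likelihood test called 0 of 39 members, and 0.0% of all 12587 genes, for HF against LF in floxed, for HF against LF in knockout and for knockout against floxed on HF. For knockout against floxed on LF and for the interaction, the difference between genotypes in the diet difference, it again called 0 of 39 members, with 0.0159% of all genes called in each. DESeq2 called 1 of 39 members, Abcc3, in 3 of the 5 comparisons, as given below. In those it called 254 (HF against LF in floxed), 34 (knockout against floxed on LF) and 107 (interaction) of all 12587 genes. Differences are therefore given as values with their errors, and log2 fold changes are from the edgeR fit with Benjamini-Hochberg adjusted p over all genes. Since these are whole livers, fewer cells of a type and less RNA per cell cannot be told apart.

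The bile salt and phospholipid exporters took different paths across the groups. Abcb11, the bile salt export pump, was at 68.28, 28.46 and 71.93 FPKM in HF knockout, 70.7, 79.12 and 84.86 FPKM in HF floxed, 106.12, 92.45 and 91.75 FPKM in LF knockout, and 102.11, 84.76 and 98.11 FPKM in LF floxed. All HF knockout libraries lay below all LF knockout libraries. HF floxed and LF floxed overlapped narrowly in FPKM, while HF floxed lay wholly lower in TMM-scaled log2 CPM. HF over LF gave a log2 fold change of -0.72 in knockout (SE 0.34, edgeR adjusted p = 0.425) and -0.53 in floxed (SE 0.34, edgeR adjusted p = 0.544). Without HF knockout replicate 2 the value in knockout was -0.39. Between genotypes on HF it was -0.34 (SE 0.34, edgeR adjusted p = 0.841), and without HF knockout replicate 2 it was 0.0019. On LF the genotypes overlapped, with a log2 fold change of -0.15 (SE 0.34, edgeR adjusted p = 0.976), or 0.03 on the log2(FPKM + 1) scale.

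Abcb4, the phosphatidylcholine floppase, was at 43.07, 25.05 and 71.72 FPKM in HF knockout, 110.38, 110.09 and 71.11 FPKM in HF floxed, 60.64, 83.4 and 81.03 FPKM in LF knockout, and 54.64, 41.69 and 47.96 FPKM in LF floxed. HF floxed lay wholly above LF floxed, and LF knockout lay wholly above LF floxed. HF knockout overlapped each of the other groups in FPKM, and lay wholly below HF floxed in log2 CPM. HF over LF gave a log2 fold change of -0.66 in knockout (SE 0.31, edgeR adjusted p = 0.425) and 0.74 in floxed (SE 0.31, edgeR adjusted p = 0.388). Without HF knockout replicate 2 the value in knockout was -0.35. The interaction was -1.40 (SE 0.44, unadjusted p = 0.00869, edgeR adjusted p = 0.426). Knockout over floxed was -0.93 on HF (SE 0.31, edgeR adjusted p = 0.598) and -0.62 without HF knockout replicate 2, and on LF it was 0.47 (SE 0.31, edgeR adjusted p = 0.929). Abcb4 shares 127 of its 4030 stretches of 50 bases with Abcb1a, so a small part of its fragments could be split between them.

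The sterol exporters Abcg5 and Abcg8 had their lowest group means in the HF groups. Abcg5 was at 21.15, 20.5 and 21.95 FPKM in HF knockout, 21.56, 22.81 and 30.48 FPKM in HF floxed, 38.42, 26.82 and 26.73 FPKM in LF knockout, and 34.06, 35.85 and 35.78 FPKM in LF floxed. In each genotype all HF libraries lay below all LF libraries. The log2 fold change of HF over LF was -0.50 in knockout (SE 0.24, edgeR adjusted p = 0.431) and -0.74 in floxed (SE 0.24, unadjusted p = 0.0112, edgeR adjusted p = 0.304). Without LF knockout replicate 1, its highest library, the value in knockout was -0.26. Its partner Abcg8 was at 25.37, 17.21 and 22.94 FPKM in HF knockout, 18.2, 17.59 and 22.2 FPKM in HF floxed, 36.13, 20.47 and 21.07 FPKM in LF knockout, and 30.29, 32.97 and 25.49 FPKM in LF floxed. HF floxed lay wholly below LF floxed, and the knockout groups overlapped. HF over LF gave -0.21 for Abcg8 in knockout (SE 0.30, edgeR adjusted p = 0.814) and -0.83 in floxed (SE 0.30, unadjusted p = 0.0185, edgeR adjusted p = 0.331). Without LF knockout replicate 1, the library with most Abcg8, the value in knockout was 0.15. Knockout over floxed was -0.13 on HF and -0.36 on LF for Abcg5, and 0.28 on HF and -0.34 on LF for Abcg8, with groups that overlapped and no unadjusted p under 0.05. The sign for Abcg5 on HF turned without HF floxed replicate 3, to 0.16.

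Abcc2, the canalicular exporter of conjugates, was at 23.66, 40.27 and 45.76 FPKM in HF knockout, 40.79, 54.18 and 42.18 FPKM in HF floxed, 49.32, 54.99 and 56.06 FPKM in LF knockout, and 40.86, 42.14 and 33.0 FPKM in LF floxed. HF knockout lay wholly below LF knockout, and LF knockout wholly above LF floxed. HF over LF gave a log2 fold change of -0.58 in knockout (SE 0.20, unadjusted p = 0.0146, edgeR adjusted p = 0.344) and -0.04 in floxed (SE 0.20, edgeR adjusted p = 0.952), or 0.23 there on the log2(FPKM + 1) scale. Knockout over floxed was -0.27 on HF (SE 0.20, edgeR adjusted p = 0.778) and 0.27 on LF (SE 0.20, edgeR adjusted p = 0.929).

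**Figure D2:**
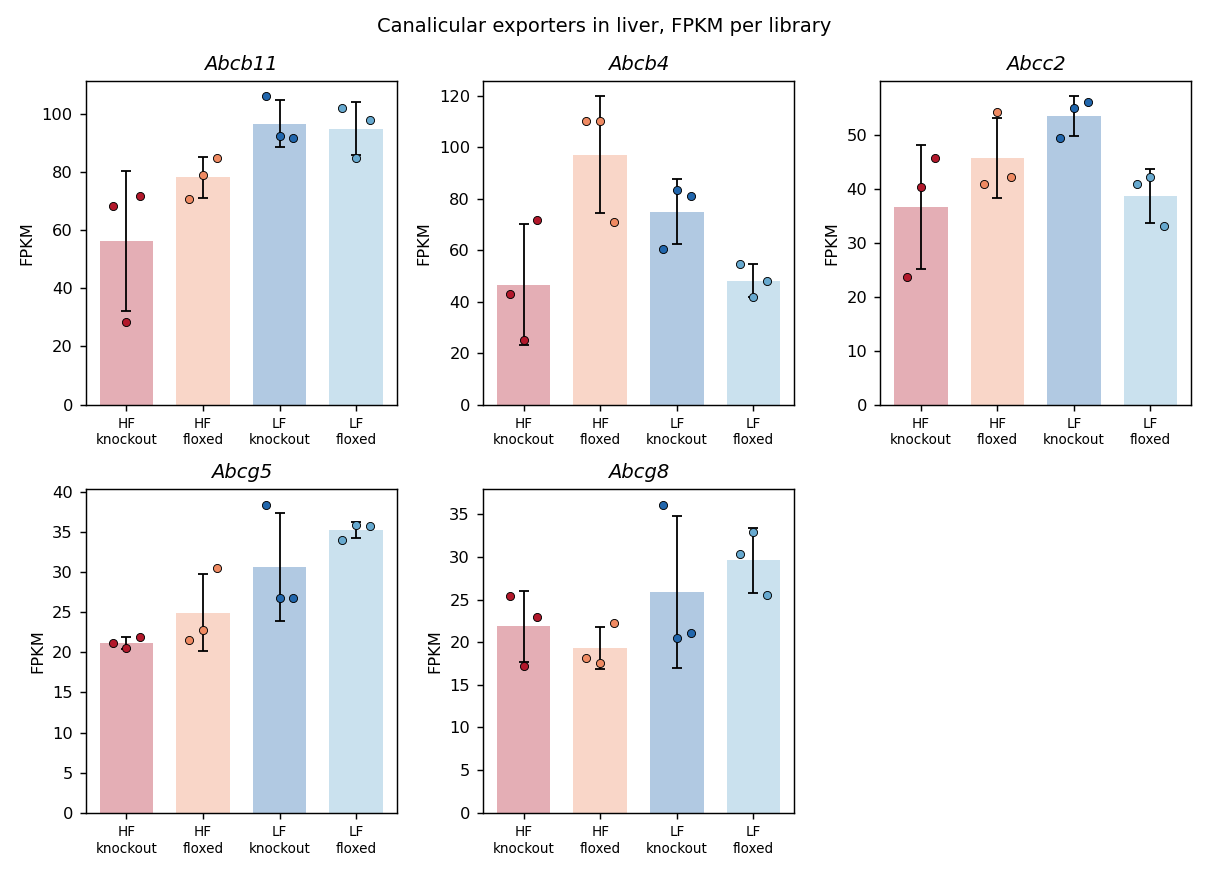
FPKM (y axis) of the 5 canalicular exporters by group (x axis), with points for libraries and bars and error bars for the mean and SD of 3 libraries. Abcg5 sits between 20.5 and 30.48 FPKM in the HF groups and between 26.73 and 38.42 FPKM in the LF groups, and Abcb4 is highest in HF floxed, where it reaches 110.38 FPKM.

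For HF over LF, the median log2 fold change of the 5 canalicular exporters was -0.58 in knockout, with 5 lower, and -0.53 in floxed, with 4 lower and Abcb4 higher. The median of all genes tested was 0.03 in knockout and -0.00067 in floxed. The 6 hepatocyte markers had a median of -0.29 in knockout, with 4 lower, and -0.53 in floxed, with 6 lower. Their summed level lay wholly lower in HF floxed than in LF floxed, and its part in the exporters' values was not tested. For knockout over floxed the exporters' median was -0.27 on HF (4 of 5 lower) and -0.15 on LF (3 of 5 lower), beside 0.03 and -0.02 for all genes. That of the hepatocyte markers was 0.0015 on HF (3 of 6 lower) and -0.18 on LF (5 of 6 lower). In 20 two-sided exact permutation tests on log2(FPKM + 1), 4 for each exporter, 8 gave p = 0.1, the smallest that 3 against 3 libraries allow, with a Benjamini-Hochberg adjusted value of 0.25.

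Among all members, the clearest separation was that of Abcc3, the basolateral multidrug resistance protein that exports glucuronides and bile salts to blood. It was at 9.94, 33.64 and 64.99 FPKM in HF knockout, 72.38, 67.61 and 42.79 FPKM in HF floxed, 31.26, 62.5 and 62.13 FPKM in LF knockout, and 7.61, 14.74 and 12.96 FPKM in LF floxed. All HF floxed and all LF knockout libraries lay above all LF floxed libraries, and HF knockout replicate 1 lay within the LF floxed range. HF over LF gave a log2 fold change of -0.57 in knockout and 2.09 in floxed (SE 0.49, 4.26-fold, unadjusted p = 0.00113, edgeR adjusted p = 0.206). Knockout over floxed on LF was 1.96 (SE 0.48, 3.88-fold, unadjusted p = 0.00178, edgeR adjusted p = 0.78), and on HF it was -0.71. The interaction was -2.66 (SE 0.67, unadjusted p = 0.00204, edgeR adjusted p = 0.396).

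Abcc3 passed with another tool. DESeq2 gave adjusted p = 0.00201 for HF over LF in floxed, 0.0123 for knockout over floxed on LF and 0.0144 for the interaction. edgeR on the 6 floxed libraries alone gave adjusted p = 0.0235 for HF over LF, and there it called 82 genes over all genes. With the nearly alike libraries averaged, which leaves 2 values in 2 of the groups, the log2 fold change of HF over LF in floxed was 2.02 and edgeR's adjusted p was 0.886. Over the fits that each left out 1 library, this log2 fold change ran from 1.87 to 2.28.

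Of the other multidrug resistance proteins of subfamily C, Abcc1, Abcc4, Abcc5 and Abcc10 averaged under 1 FPKM. Abcc4, a basolateral exporter of bile acids and cyclic nucleotides, was at 0.21, 1.37 and 0.66 FPKM in HF knockout, 0.78, 0.81 and 0.34 FPKM in HF floxed, 0.29, 0.17 and 0.5 FPKM in LF knockout, and 0.11, 0.06 and 0.32 FPKM in LF floxed. Abcc1, an exporter of glutathione conjugates, was at 0.68, 0.48 and 0.35 FPKM in HF floxed, against 0.15, 0.09 and 0.22 FPKM in LF floxed. Both lay wholly higher in HF floxed than in LF floxed, and the log2 fold change was 1.69 for Abcc4 (SE 0.71, edgeR adjusted p = 0.386) and 1.44 for Abcc1 (SE 0.52, edgeR adjusted p = 0.326). Abcc10, a broad-specificity exporter, was at 0.97, 0.73 and 0.46 FPKM in HF floxed, against 0.81, 1.24 and 1.52 FPKM in LF floxed. These groups overlapped in FPKM, while HF floxed lay wholly lower in log2 CPM. The log2 fold change was -1.0 (SE 0.30, unadjusted p = 0.00634, edgeR adjusted p = 0.277). Abcc10 was also lower in knockout than in floxed on LF, by a log2 fold change of -0.74 (SE 0.30, edgeR adjusted p = 0.929), with overlap in FPKM and none in log2 CPM.

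Abcc6, a hepatocyte protein needed for ATP release, was at 18.18, 11.06 and 16.06 FPKM in HF knockout, 24.76, 22.5 and 19.66 FPKM in HF floxed, 21.75, 25.38 and 25.46 FPKM in LF knockout, and 19.2, 21.69 and 17.59 FPKM in LF floxed. HF knockout lay wholly below LF knockout in FPKM and in log2 CPM. It lay wholly below HF floxed in FPKM and overlapped it in log2 CPM. The log2 fold change of HF over LF in knockout was -0.61 (SE 0.23, edgeR adjusted p = 0.354), and -0.39 at its smallest over the fits that each left out 1 library. Abcc5, a cyclic nucleotide exporter, was at 0.28, 3.05 and 0.92 FPKM in HF knockout, against 0.4, 0.36 and 0.24 FPKM in LF knockout. Its log2 fold change of 1.80 (SE 0.75, edgeR adjusted p = 0.38) was 0.50 without HF knockout replicate 2. Of the sulfonylurea receptors, regulatory subunits of potassium channels, Abcc9 averaged 3.06 FPKM over 12 libraries, and its log2 fold changes lay between -0.06 and 0.21.

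**Figure D3:**
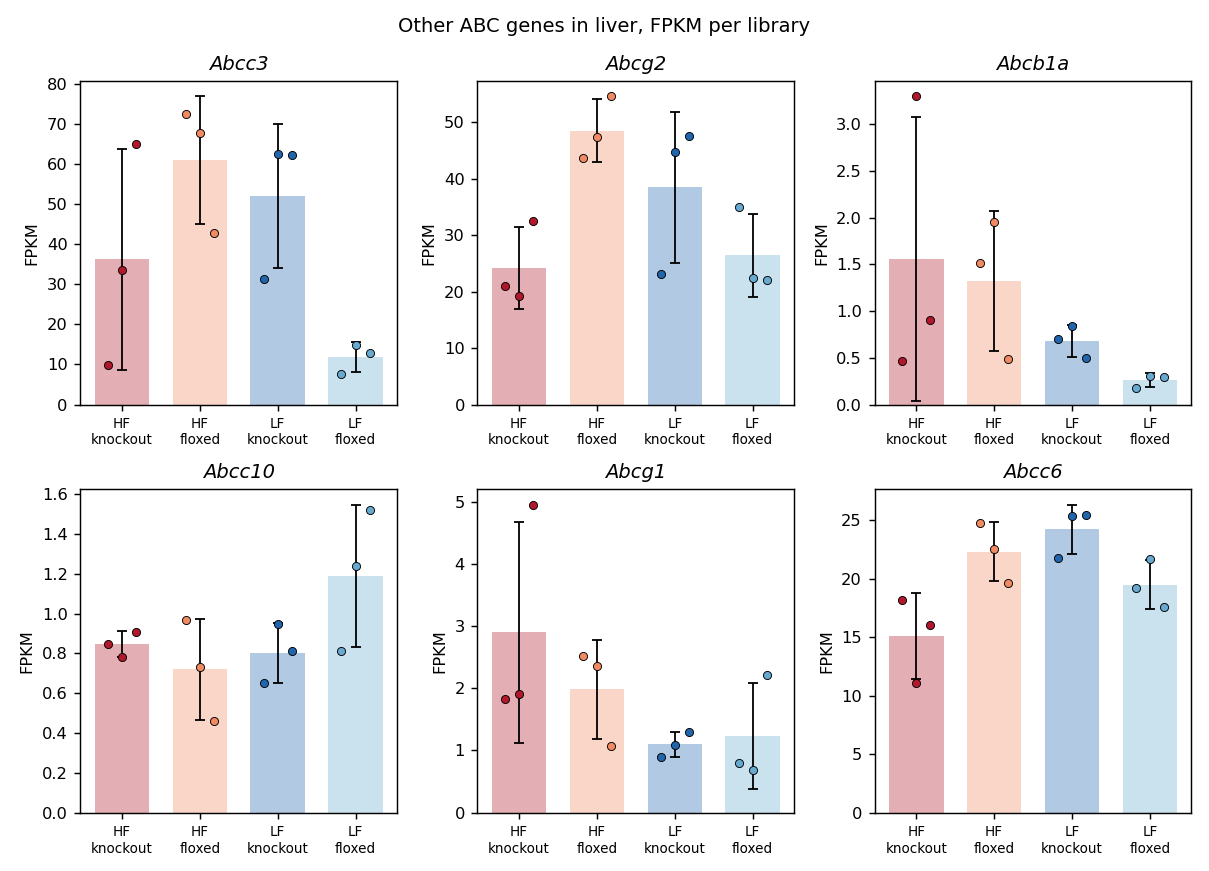
FPKM (y axis) of 6 further ABC genes by group (x axis), with points for libraries and bars and error bars for the mean and SD of 3 libraries. Abcc3 sits between 7.61 and 14.74 FPKM in LF floxed and between 31.26 and 72.38 FPKM in HF floxed and LF knockout, and HF knockout spans 9.94 to 64.99 FPKM.

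Multidrug efflux is carried by Abcb1a and Abcb1b, the mouse P-glycoproteins, and by Abcg2. Abcg2 was at 21.01, 19.18 and 32.59 FPKM in HF knockout, 43.71, 47.33 and 54.57 FPKM in HF floxed, 23.16, 44.75 and 47.59 FPKM in LF knockout, and 34.92, 22.45 and 21.97 FPKM in LF floxed. HF floxed lay wholly above HF knockout in FPKM and in log2 CPM. It lay wholly above LF floxed in FPKM and overlapped it in log2 CPM. Knockout over floxed on HF gave a log2 fold change of -0.90 (SE 0.30, unadjusted p = 0.0111, edgeR adjusted p = 0.598), and -0.74 without HF knockout replicate 2. For HF over LF it was -0.63 in knockout and 0.63 in floxed, with an interaction of -1.25 (SE 0.42, unadjusted p = 0.0119, edgeR adjusted p = 0.434).

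Abcb1a was at 0.47, 3.3 and 0.91 FPKM in HF knockout, 1.52, 1.96 and 0.49 FPKM in HF floxed, 0.7, 0.84 and 0.5 FPKM in LF knockout, and 0.18, 0.31 and 0.3 FPKM in LF floxed. LF floxed lay wholly below each of the other groups. The log2 fold change was 1.97 for HF over LF in floxed (SE 0.64, unadjusted p = 0.00975, edgeR adjusted p = 0.301) and 1.16 for knockout over floxed on LF (SE 0.63, edgeR adjusted p = 0.929). Abcb1b stayed at 0.49 FPKM or less in every library, and its log2 fold change of HF over LF in knockout was 1.31 (SE 0.56, edgeR adjusted p = 0.388). The transcripts of Abcb1a and Abcb1b share 768 stretches of 50 bases, 15.5% of those of Abcb1a, so their counts are uncertain where fragments could be assigned to either.

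Sterol and phospholipid exporters outside the canaliculus showed no common diet difference. Abca1, which loads cholesterol onto apolipoprotein A-I, was at 8.12, 24.96 and 15.58 FPKM in HF knockout, 8.7, 13.72 and 13.32 FPKM in HF floxed, 10.4, 15.3 and 15.56 FPKM in LF knockout, and 12.34, 11.49 and 6.87 FPKM in LF floxed. The groups overlapped in every comparison, and its log2 fold changes lay between -0.03 and 0.50. Abcg1, a sterol exporter abundant in macrophages, was at 1.83, 1.91 and 4.95 FPKM in HF knockout, 2.52, 2.35 and 1.07 FPKM in HF floxed, 0.9, 1.09 and 1.3 FPKM in LF knockout, and 0.8, 0.68 and 2.21 FPKM in LF floxed. HF knockout lay wholly above LF knockout, with a log2 fold change of 1.39 (SE 0.46, unadjusted p = 0.0117, edgeR adjusted p = 0.344), or 0.90 without HF knockout replicate 3. Summed macrophage markers, 9 of 9 present, ran from 54.63 to 228.52 FPKM in HF knockout, against 51.66 to 101.13 FPKM in LF knockout, and their part in this difference was not tested.

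Within that group all 5 members were higher in knockout than in floxed on HF, with a median log2 fold change of 0.39, beside 0.03 for all genes, and none passed the test. Abcg1 had 0.66, and 0.17 at its smallest over the fits that each left out 1 library. Abca1 had 0.50, and HF knockout replicate 2 was its highest library, at 24.96 FPKM. Abca3 had 0.39, with 10.58, 18.48 and 13.87 FPKM in HF knockout. Its groups overlapped in FPKM, while HF knockout lay wholly higher in log2 CPM. For Abca2 the value was 0.08 (SE 0.19), and its mean FPKM was 5.55 in HF knockout and 5.78 in HF floxed, so the count of 5 depends on the scale. The macrophage markers had a median of 0.64 in the same comparison, with 6 of 9 higher, and their part was not tested. The group also holds Abca2, a lipid transporter best known in brain, Abca3, the surfactant lipid transporter of lung, which was its highest member and averaged 13.5 FPKM, and Abca7, a phospholipid exporter. Abca2 was lower in HF than in LF by a log2 fold change of -0.46 in floxed (SE 0.19, edgeR adjusted p = 0.388). Abca7 was at 0.83, 0.8 and 0.74 FPKM in LF knockout, against 1.09, 0.89 and 1.25 FPKM in LF floxed, with no overlap (log2 fold change -0.62, SE 0.28, edgeR adjusted p = 0.929).

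The Abca6-like genes, Abca5, Abca6, Abca8a, Abca8b and Abca9, were led by Abca6, which ran from 18.93 to 30.99 FPKM over all libraries. Abca6 showed some of the smallest differences, with log2 fold changes between -0.09 and 0.10. Abca8a was at 4.52, 6.07 and 8.86 FPKM in HF floxed, against 8.48, 14.23 and 7.98 FPKM in LF floxed, with overlap (log2 fold change -0.88, SE 0.31, edgeR adjusted p = 0.318). Abca8b, its neighbour in sequence, had a log2 fold change of 0.23 in the same comparison, and the pair shares 105 stretches of 50 bases. Abca5 was at 0.82, 0.93 and 0.97 FPKM in LF knockout, against 0.7, 0.5 and 0.26 FPKM in LF floxed, with no overlap and a log2 fold change of 0.70. Abca9 averaged 1.13 FPKM, and its log2 fold changes lay between -0.07 and 0.51 in the 4 pairwise comparisons.

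Of the peroxisomal transporters, Abcd3 was at 53.6, 45.89 and 107.41 FPKM in HF knockout, 101.06, 118.59 and 95.42 FPKM in HF floxed, 102.27, 110.47 and 113.45 FPKM in LF knockout, and 90.93, 116.61 and 92.69 FPKM in LF floxed. HF knockout replicates 1 and 2 lay below every other library. The log2 fold change of HF over LF in knockout was -0.65 (SE 0.26, unadjusted p = 0.0284, edgeR adjusted p = 0.364), and -0.42 without HF knockout replicate 2. Abcd2, which carries very-long-chain fatty acids, was at 1.45, 25.14 and 7.79 FPKM in HF knockout, against 5.98, 7.02 and 1.45 FPKM in HF floxed. HF knockout overlapped HF floxed, and the log2 fold change of 1.35 (SE 0.79, edgeR adjusted p = 0.715) was 0.03 without HF knockout replicate 2.

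Mitochondrial and lysosomal members take part in heme and cobalamin handling. Abcb6, the highest mitochondrial-group member, was at 16.71, 6.87 and 18.94 FPKM in HF knockout, against 23.32, 20.15 and 20.3 FPKM in HF floxed. These groups did not overlap in FPKM and overlapped in log2 CPM (log2 fold change -0.44, SE 0.31, edgeR adjusted p = 0.76). Abcb8 was at 11.03, 10.59 and 10.84 FPKM in HF knockout, against 8.66, 9.11 and 8.25 FPKM in LF knockout, with no overlap (log2 fold change 0.36, SE 0.18, edgeR adjusted p = 0.431). Abcd4, which takes part in lysosomal cobalamin export, was at 2.5, 2.62 and 2.33 FPKM in LF knockout, against 2.93, 3.31 and 2.88 FPKM in LF floxed, with no overlap (log2 fold change -0.47, SE 0.21, edgeR adjusted p = 0.929). Abcb9, a lysosomal peptide transporter, averaged 0.802 FPKM and had a log2 fold change of -0.82 for knockout over floxed on HF (SE 0.44, edgeR adjusted p = 0.693). Abcb10, a mitochondrial inner membrane protein of erythroid heme synthesis, had a log2 fold change of HF over LF of -0.53 in knockout and -0.68 in floxed (edgeR adjusted p = 0.378 in floxed). Abcg3, a rodent member of subfamily G, averaged 0.778 FPKM, and HF over LF gave 1.13 in knockout and 1.10 in floxed without passing the test.

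The soluble members without membrane domains included those that varied least. Abce1, Abcf1 and Abcf3 varied by 1.41-fold, 1.41-fold and 1.47-fold between their lowest and highest libraries, against 24.4-fold for Abcd2 and 9.51-fold for Abcc3. Their log2 fold changes lay between -0.29 and 0.21 in the 4 pairwise comparisons. Abcf3 was at 10.96, 11.7 and 12.08 FPKM in LF knockout, against 9.29, 9.01 and 8.2 FPKM in LF floxed, with no overlap (log2 fold change 0.21, SE 0.14, edgeR adjusted p = 0.929). Abcf2 had a lower level in HF knockout replicate 2, at 6.63 FPKM, than in the other libraries, which ran from 10.77 to 17.56 FPKM.

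**Figure D4:**
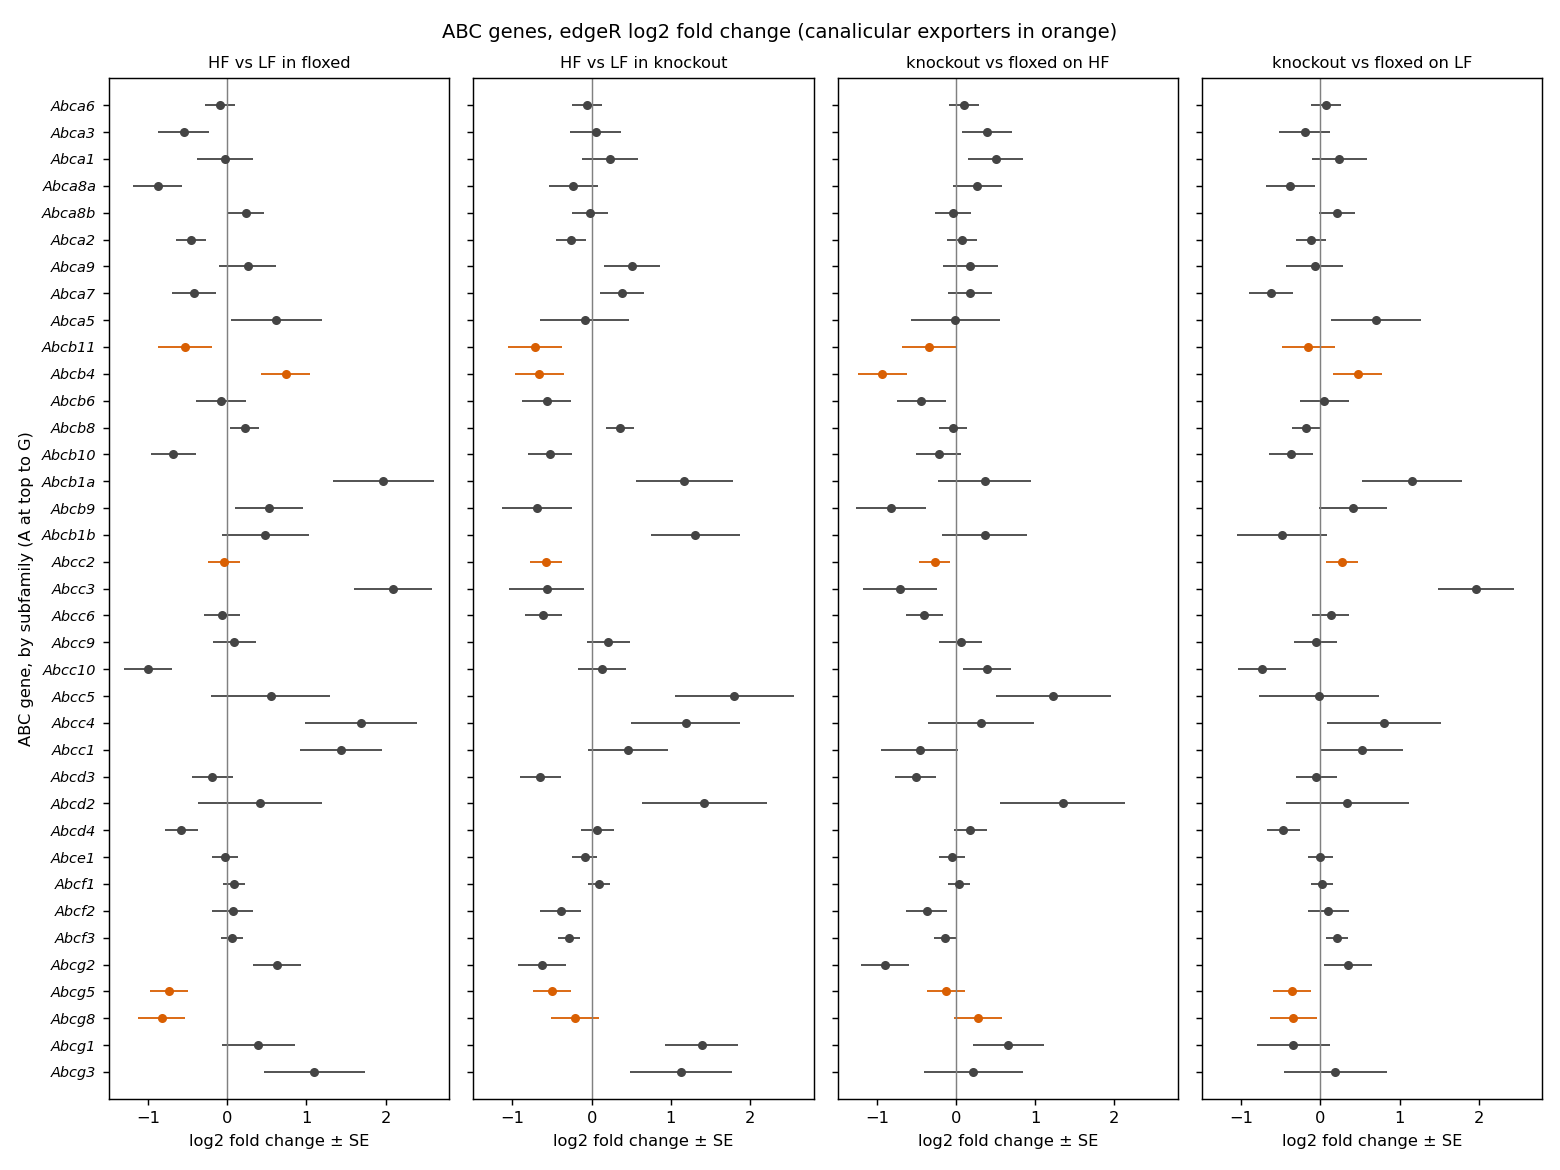
Log2 fold change with SE (x axis) of 37 ABC genes (y axis, by subfamily) from edgeR in 4 pairwise comparisons, with canalicular exporters in orange. No value passed the test, and Abcc3 stands at 2.09 for HF over LF in floxed and 1.96 for knockout over floxed on LF.

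Over all 39 members the medians stayed close to those of all genes. The median log2 fold change of HF over LF was -0.06 in knockout and 0.08 in floxed, and for knockout over floxed it was 0.04 on HF and 0.05 on LF. Medians by subfamily include the canalicular exporters, which lie in B, C and G. For HF over LF in knockout the median was -0.02 for A, -0.53 for B, 0.17 for C, -0.11 for D, -0.29 for F and -0.21 for G. In floxed it was -0.09 for A, 0.22 for B, 0.32 for C, 0.11 for D, 0.07 for F and 0.39 for G. Members with an unadjusted p under 0.05 numbered 6 of 39 for HF over LF in knockout (12.2% of all genes tested) and 12 of 39 in floxed (12.2%). For knockout over floxed they numbered 2 on HF (7.65%) and 4 on LF (5.13%), and for the interaction 4 (9.55%). Besides Abcc3, Abcb4 and Abcg2, the interactions of smallest p were 1.13 for Abcc10, 0.65 for Abcd4, 0.80 for Abca7 and -1.23 for Abcb9, with edgeR adjusted p from 0.469 to 0.551.

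Counts of members whose groups did not overlap depended on the scale. In FPKM they were 11 of 39 for HF over LF in knockout (11.6% of all genes), 14 in floxed (26.9%), 5 for knockout over floxed on HF (9.33%) and 13 on LF (18.2%). Fewer did so in FPKM and also in TMM-scaled log2 CPM. On both scales, HF floxed lay above LF floxed for 6 members, among them Abcb1a, Abcb4, Abcc1, Abcc3 and Abcc4, and below it for Abcg5 and Abcg8 (8 of 39, 14.6% of all genes, with 11.3% of all genes higher and 3.27% lower). HF knockout lay above LF knockout for Abcb8 and Abcg1 and below it for Abca2, Abcb10, Abcb11, Abcc2, Abcc6, Abcf3 and Abcg5 (9 of 39, 8.11%, with 4.48% higher and 3.63% lower). Knockout lay below floxed on HF for Abcg2 (1 of 39, 4.97%, with 1.79% higher and 3.18% lower). On LF knockout lay above floxed for Abca5, Abcb1a, Abcb4, Abcc2, Abcc3 and Abcf3 and below it for Abca7 and Abcd4 (8 of 39, 8.52%, with 6.37% higher and 2.15% lower).

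**Figure D5:**
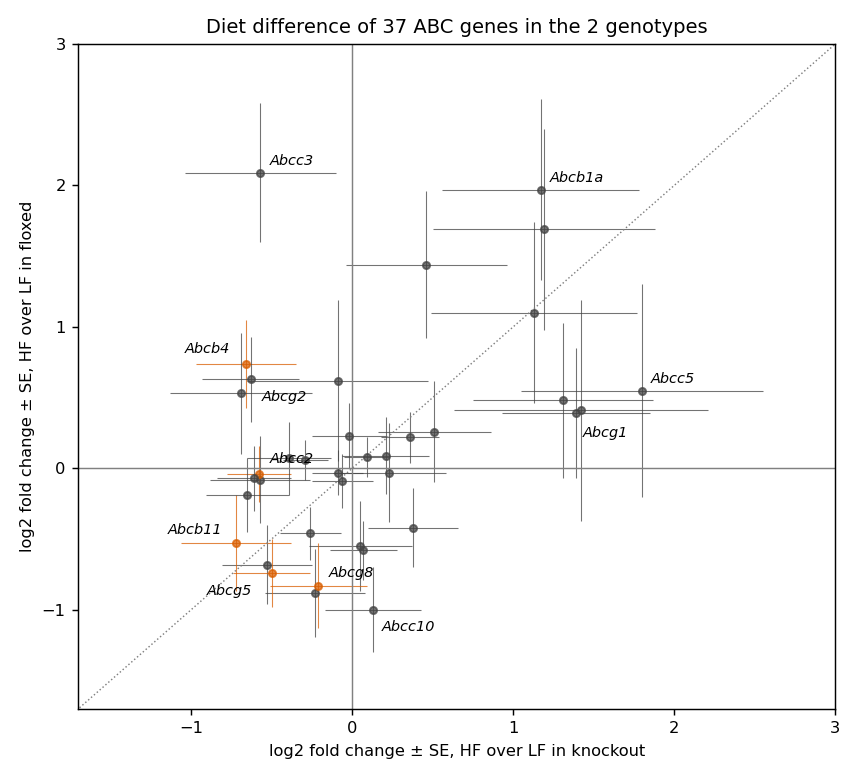
Log2 fold change of HF over LF with SE in knockout (x axis) and in floxed (y axis) for 37 ABC genes, with canalicular exporters in orange and a dotted line of equal values. Abcc3 (-0.57 in knockout and 2.09 in floxed), Abcb4 (-0.66 and 0.74) and Abcg2 (-0.63 and 0.63) lie in the upper left, where the signs differ.

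Genes around the ABC transporters were read from 3 lists. Of hepatic uptake carriers and lipid transport genes outside the superfamily, 17 of 19 were tested and none passed in any comparison. This list's median log2 fold change of HF over LF was -0.26 in knockout and 0.0036 in floxed. Its member of smallest p in the lower direction for HF over LF in knockout was Slc10a2, the apical sodium-bile acid transporter (log2 fold change -0.64, SE 0.20, edgeR adjusted p = 0.344), and for knockout over floxed on LF the same gene was higher (0.98, SE 0.20, edgeR adjusted p = 0.386). Of the same list, Scarb1 had 0.78 for HF over LF in knockout, and Apoa1, the main protein of high-density lipoprotein, had 1.12 for knockout over floxed on HF and 1.70 for the interaction, with HF knockout replicate 2 the highest library for both. Slc47a1, a cation exporter, had 0.58 for HF over LF in floxed and -0.44 for knockout over floxed on HF, and Tmem30a, a flippase subunit, had -0.37 and, on LF, -0.30. Slc10a1, the main sodium-dependent bile salt uptake carrier, was at 25.18 FPKM in HF knockout replicate 2 and at 182.55 to 610.51 FPKM elsewhere. Of nuclear receptors and other factors known to act on ABC genes, all 14 were tested and none passed. The sterol factor Srebf2 had 0.79 for HF over LF in knockout (edgeR adjusted p = 0.344) and 0.69 for knockout over floxed on HF (edgeR adjusted p = 0.61). The others of smallest p in a direction were Nfe2l2 (0.55) and Nr1h2 (-0.30) for HF over LF in floxed, Ppara (-0.50) for HF over LF in knockout, Nr1i2 (-0.39) for knockout over floxed on HF, Ahr (0.84) and Nr1h2 (-0.31) on LF, and Nr1h2 (0.60) and Nfe2l2 (-0.72) for the interaction. The bile acid receptor Nr1h4 was at 18.55 FPKM in HF knockout replicate 2 and at 37.47 to 57.5 FPKM elsewhere, and the xenobiotic receptor Nr1i3 at 1.46 FPKM and at 20.84 to 58.36 FPKM. The part of these levels in the values of Abcb11 and Abcb4 in that library was not tested. Tap1 and Tap2, antigen peptide transporters of subfamily B under other symbols, had log2 fold changes between 0.16 and 0.52 in the 4 pairwise comparisons and did not pass, and Cftr was too low to test.

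No marker gene of another cell type passed the test in any comparison, while some summed levels differed in range. Summed cholangiocyte markers, 6 of 6 in the files with Cftr near 0, ran from 25.81 to 755.13 FPKM in HF knockout, 35.42 to 108.83 FPKM in HF floxed, 21.8 to 34.95 FPKM in LF knockout and 21.8 to 37.39 FPKM in LF floxed. Spp1 made up most of the highest sums, with 743.15 FPKM in HF knockout replicate 2. In that library Epcam (2.25 FPKM), Sox9 (7.63 FPKM) and Cftr (0.22 FPKM) were also at their highest of all libraries. Krt19 (0.92 FPKM) and Krt7 (0.96 FPKM) lay within the range of the other libraries there. Summed stellate cell markers, 6 of 6 present, ran from 37.43 to 131.28 FPKM in HF knockout, 98.78 to 187.42 FPKM in HF floxed, 66.16 to 92.61 FPKM in LF knockout and 54.45 to 97.49 FPKM in LF floxed. Summed erythroid markers, 5 of 5 in the files and carried by Hba-a1, ran from 679.17 to 1121.19 FPKM in HF knockout, 546.43 to 740.78 FPKM in HF floxed, 751.83 to 1565.37 FPKM in LF knockout and 408.11 to 422.77 FPKM in LF floxed. LF floxed was wholly lowest for this sum, as for Abcb1a. Alas2 of the same list was at 47.58 to 72.37 FPKM in LF floxed and overlapped each of the other groups. For the stellate sum HF floxed lay above LF floxed only narrowly, at 98.78 against 97.49 FPKM in the nearest libraries. Its largest gene, Dcn, overlapped, with 82.1 FPKM in HF floxed replicate 3 and 87.32 FPKM in LF floxed replicate 3. Abcc3 and Abcb4 lay wholly higher in HF floxed in FPKM and in log2 CPM, and Abcg2 only in FPKM. Any part of other cells in the members' differences was not tested.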

How the data were processed

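Total RNA of mouse liver was sequenced in 12 libraries, prepared by the BGI standard protocol per the labels' protocols. The deposited tables hold expected counts (estimated counts, unscaled) and FPKM computed by the authors per gene. Per the submitters' processing notes the build was mm9. For aligner and counter the sources used here give no name. Named genes absent from a file (3825 in at least 1) were taken as 0, and 1229 loci without a name (6.65 to 17.33% of counts) were left out.

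After rounding, edgeR 4.0.16 (R 4.3.3) was run on expected counts with TMM factors, filterByExpr (12587 genes) and the quasi-likelihood test, all 12 libraries in 4 group means, adjusted over all genes, calls at 5%. Alternatives used DESeq2 1.42.0, limma 3.58.1 on log2(FPKM + 1) or log2(FPKM + 0.1), other filters, a replicate block and left-out libraries. The scripts were tested on simulated data. Log2 CPM used a prior count of 2.

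The main test did not pair libraries by replicate number. Members and lists were chosen with earlier results of these data known. Genes named are the 5 canalicular exporters, in each comparison the 3 other members of smallest p per direction, the highest member per subfamily and role, and Thbs1. Further members are given with their values, chosen after these were seen. RefSeq windows (GRCm38.p6) gave sequences, and GENCODE transcripts gave shared stretches of 50 bases. Values of 2 members are not reported here, and the counts over members include them.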

Additional observations from a re-analysis of the deposited data

How the results depend on the processing

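The count of members called was 0 in all comparisons and became 1, Abcc3, with DESeq2 for HF over LF in floxed, for knockout over floxed on LF and for the interaction. For HF over LF in floxed it also became 1 with only the groups compared and with HF floxed replicate 3 and HF knockout replicate 1, whose files are named in another form, left out together. Over the fits that each left out 1 library it stayed at 0. Of 1295 values of the named members under alternatives, 1274 kept their direction and side of the threshold, 16 turned sign and 5 passed the threshold.

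Genes called over all genes moved more. For HF over LF in floxed the count of 0 became 254 with DESeq2, 1 with no filter on low counts, 1 with log2(FPKM + 0.1), 82 with only the groups compared, 158 with both libraries left out and 3 with unnamed loci kept, and 0 to 14 with each library left out (14 without HF floxed replicate 3). For HF over LF in knockout it became 126 with DESeq2, 2 with both libraries left out and 0 to 10 with each left out (10 without HF knockout replicate 3). For knockout over floxed on HF it became 69 with DESeq2, 1 with log2(FPKM + 1) without a filter, 3 with both left out and 0 to 14 with each left out (14 without HF knockout replicate 3). For knockout over floxed on LF the count of 2 became 34 with DESeq2, 0 with log2(FPKM + 1), filtered or not, 1 with log2(FPKM + 0.1), 11 with only the groups compared, 7 with both left out, 0 with nearly alike libraries averaged and 0 to 13 with each left out (13 without LF knockout replicate 1). For the interaction 2 became 107 with DESeq2, 5 with both left out, 0 with nearly alike libraries averaged, 1 with unnamed loci kept and 1 to 17 with each left out (17 without HF knockout replicate 3).

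With the replicate number as a block, 0 members were called in any comparison, and genes called became 0 for knockout over floxed on LF and 1 for the interaction. The correlation of the deviations of libraries of the same number ran from -0.331 to 0.404, which does not settle whether the number pairs them.

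Signs turned for values between -0.34 (Abcb11, knockout over floxed on HF) and 0.24 (Abcg5, interaction). They also turned for Abcc5, whose 1.23 for knockout over floxed on HF became -0.07 without HF knockout replicate 2, and the cause was not tested. Abcc2 for HF over LF in floxed was 0.23 with log2(FPKM + 1), filtered or not, 0.24 with log2(FPKM + 0.1) and -0.16 to 0.05 with each library left out, and its permutation difference was -0.04 in log2 CPM. Abcb11 for knockout over floxed on LF was 0.03 in the 3 FPKM fits, and its permutation difference was -0.15 in log2 CPM. With each library left out, Abcb11 for knockout over floxed on HF ran from -0.66 to 0.0019 and for the interaction from -0.53 to 0.15, Abcg8 for HF over LF in knockout from -0.48 to 0.15, and for knockout over floxed on HF Abcg5 ran from -0.26 to 0.16 and Abcc5 from -0.07 to 1.73. Abcg5 for knockout over floxed on HF was 0.05 with both libraries left out, and its interaction was -0.00015 with nearly alike libraries averaged. Members whose groups did not overlap for knockout over floxed on HF numbered 3 in log2 CPM against 5 in FPKM. For these counts of overlap, the log2 CPM scale, averaging and leaving out HF knockout replicate 2 were chosen after seeing the data. The biological coefficient of variation was 52.6% in HF knockout and 23.3 to 28.1% in the other groups. No alternative varied the depth.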
